A study of Mus musculus with 10 samples.

Results

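H3K18La, lactate bound to lysine 18 of histone H3, was compared with H3K27Ac, acetyl bound to lysine 27 of the same histone, in retinas kept in low glucose. The members of the comparison were the 5 CUT&Tag libraries cultured at 5 mM glucose, 3 for H3K18La and 2 for H3K27Ac, of 10 in the series. The other 5 were cultured at 25 mM glucose and were used only where named. All libraries came from retinal explants of wild-type C57BL/6J mice at postnatal day 28, freed of sclera and pigment epithelium and cultured for 48 h in Neurobasal-A medium with B27 and N2 supplements. The labels give no transgene or drug for any of these groups. In each assay 500000 dissociated cells were used, and all libraries carry the same batch label. The sample titles name H3K27Ac for the second mark, whereas the protocol text deposited with the same samples names an antibody to H3K9me3. The study's methods name an antibody to H3K27Ac for the assay, as the titles do, and the titles were followed here.

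Histone acetylation at H3K27 is added by CREBBP and EP300 and is a standard mark of active promoters and enhancers. Histone lactylation depends on lactate, the end product of glycolysis, and the retina is known for making lactate in the presence of oxygen, mostly in photoreceptors. In CUT&Tag an antibody directs a transposase to chromatin that carries a mark, so that reads pile up where the mark lies. The retina is a mix of rods, cones, bipolar, amacrine, horizontal and ganglion cells with Müller glia, microglia and vessels, of which rods are the most abundant. The libraries were made from this mix, so that fewer cells of a type and less of a mark per cell could not be told apart.

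Reads were counted in 108253 peaks with a median width of 757 bp, which covered 3.64% of the genome. The libraries held between 160437 and 1957907 reads in peaks. The H3K18La libraries were shallower, with 253262, 616758 and 160437 reads in peaks in replicates 1, 2 and 3, against 913482 and 1957907 in the H3K27Ac libraries. Peaks took 12%, 11.9% and 11.8% of the read total behind the RPKM values of the H3K18La libraries and 21.1% and 31.5% of that of the H3K27Ac libraries. The study describes the peak values of its other CUT&Tag comparisons as scaled to mapped reads. Whether duplicates were left in that total is not given in the sources used here, and the background shares that follow rest on it. A uniform background at the level outside peaks would account for 27.6% to 28.2% of the H3K18La reads in peaks and 8.20% to 14.1% of those of H3K27Ac. Over gene loci, log2 values correlated between libraries with Pearson's r of 0.863 to 0.924 for H3K18La and 0.970 for H3K27Ac, and with 0.643 to 0.730 between the marks. Values were set relative to the reads in peaks of the same library, so that more of a mark always means a larger share of that library's reads in peaks, not more of the mark per nucleus.

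The contrast was visible in the sequence of single peaks, the smallest unit tested. The stretches below come from the 3 peaks with the largest difference in each direction among those past the threshold, and are shown because the side with more H3K27Ac lay on start sites and held more CpG dinucleotides. They are given on the forward strand of GRCm38, without annotated exon bases, with CpG in capitals. The first 3 lie at the start of coding transcripts of Dnajb4, a heat shock protein co-chaperone, Kcnj14, an inward rectifier potassium channel, and Zfp932, a zinc finger protein, at chr3:152193846-152194092, chr7:45824853-45825152 and chr5:109996634-109996785. They hold 9, 4 and 8 CpG in 247, 300 and 152 bases.

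Dnajb4: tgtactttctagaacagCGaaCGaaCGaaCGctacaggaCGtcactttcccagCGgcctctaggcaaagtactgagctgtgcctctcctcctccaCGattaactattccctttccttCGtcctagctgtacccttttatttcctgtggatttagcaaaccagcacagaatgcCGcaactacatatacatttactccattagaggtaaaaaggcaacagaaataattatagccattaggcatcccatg
Kcnj14: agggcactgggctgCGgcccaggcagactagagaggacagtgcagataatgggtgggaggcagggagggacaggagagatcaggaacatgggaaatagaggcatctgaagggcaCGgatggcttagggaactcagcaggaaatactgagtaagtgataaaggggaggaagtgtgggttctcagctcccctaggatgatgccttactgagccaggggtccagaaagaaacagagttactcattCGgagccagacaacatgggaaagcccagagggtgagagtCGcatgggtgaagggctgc
Zfp932: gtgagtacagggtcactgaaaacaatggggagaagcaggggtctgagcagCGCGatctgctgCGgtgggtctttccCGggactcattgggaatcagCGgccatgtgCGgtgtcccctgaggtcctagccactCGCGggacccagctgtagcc

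The other 3 had relatively more H3K18La and lie at chr5:28143054-28143353, chr6:31136854-31137153 and chr17:86652703-86653002. The first is intergenic, at -22330 bp from the nearest start site, that of En2, which encodes a homeobox factor. The others lie in later introns of Lncpint, a long non-coding RNA, and Prkce, which encodes protein kinase C epsilon. Each stretch of 300 bases holds 1 CpG. In the Prkce peak 41.4% of the bases are marked as repeats in the reference.

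En2: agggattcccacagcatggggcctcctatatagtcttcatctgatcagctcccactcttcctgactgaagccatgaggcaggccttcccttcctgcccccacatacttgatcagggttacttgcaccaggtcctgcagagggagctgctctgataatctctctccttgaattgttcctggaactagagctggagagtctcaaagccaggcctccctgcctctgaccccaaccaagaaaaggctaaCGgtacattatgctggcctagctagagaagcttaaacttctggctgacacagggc
Lncpint: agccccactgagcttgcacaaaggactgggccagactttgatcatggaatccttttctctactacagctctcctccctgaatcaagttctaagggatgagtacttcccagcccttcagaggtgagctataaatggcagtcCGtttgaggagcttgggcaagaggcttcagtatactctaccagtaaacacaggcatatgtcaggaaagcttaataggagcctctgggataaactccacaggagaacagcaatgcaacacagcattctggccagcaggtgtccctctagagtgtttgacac
Prkce: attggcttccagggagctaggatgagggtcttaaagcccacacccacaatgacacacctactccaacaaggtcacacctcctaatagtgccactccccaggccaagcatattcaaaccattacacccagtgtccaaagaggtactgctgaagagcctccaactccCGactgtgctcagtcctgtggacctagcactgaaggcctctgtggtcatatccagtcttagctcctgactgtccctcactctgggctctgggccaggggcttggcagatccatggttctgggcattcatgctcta

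Values of a peak are reads per 1000000 reads in peaks (RPM) and per kb. At the Dnajb4 peak they were 9.33, 3.83 and 0 in H3K18La replicates 1, 2 and 3 and 64.7 and 48.3 in the H3K27Ac replicates, a log2 difference (H3K18La minus H3K27Ac, on log2 of the value plus 5) of -2.83 ± 0.68 (SE, n = 3 and 2, limma adjusted p = 0.0498). Only 2 H3K18La reads against 65 H3K27Ac reads stood behind it, a ratio of 0.0857 after scaling (95% exact interval 0.0102 to 0.322, counting error only). At the Kcnj14 peak the values were 0, 13.6 and 6.55 against 49.5 and 70.4, and at the Zfp932 peak 12.9, 7.96 and 0 against 60.9 and 60.2. At the En2 peak the order was the opposite, with 73.3, 25.1 and 57.9 for H3K18La against 0 and 6.33 for H3K27Ac (2.81 ± 0.54, limma adjusted p = 0.0468), from 14 and 4 reads. The Lncpint peak had 65.8, 64.9 and 229 against 7.30 and 13.6, and the Prkce peak 54.2, 40.8 and 28.5 against 0 and 5.84. The groups did not overlap at any of the 6. All named peaks reached the limit for testing, a mean of the mark means of 20, through the mark that was higher there alone, so that their direction was built in. The next peaks by size were those at the starts of Cdkl3, a CDK-like kinase (-2.63 ± 0.58), and Zscan18, a zinc finger protein (-2.60 ± 0.39), and those in introns of Fam107b (2.57 ± 0.43) and Lpp (2.28 ± 0.39).

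Of 10367 peaks tested, 291 (2.81%) had relatively more H3K18La and 388 (3.74%) relatively more H3K27Ac at an adjusted p under 0.05. These calls stood close to the threshold, with a smallest adjusted p of 0.0468, and all 679 were lost without either H3K27Ac library or without H3K18La replicate 2, the deepest of its group. At an unadjusted p under 0.05 there were 3906 peaks with all libraries, 1359 and 1222 without H3K27Ac replicate 1 or 2 and 3426 without H3K18La replicate 2. The 10 named peaks then had limma adjusted p-values of 0.371 without H3K27Ac replicate 1, 0.396 to 0.412 without replicate 2 and 0.0801 to 0.110 without H3K18La replicate 2, with log2 differences between -3.08 and 3.40. Without H3K18La replicate 1 there were 1390 calls, with the En2 and Prkce peaks no longer among them (limma adjusted p = 0.0748 and 0.104), and without replicate 3 there were 2580. The single peaks are therefore given as examples of the pattern over annotation classes and genes that follows.

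Annotation classes carried the plainest difference between the marks. Promoter peaks, those within 1000 bp upstream to 500 bp downstream of a start site, held 20.7%, 19.1% and 19.3% of the reads in peaks of the H3K18La libraries and 32.7% and 32.2% of those of the H3K27Ac libraries. The mean of the H3K18La libraries, 19.7% ± 0.879 (SD, n = 3), was 0.608 times that of the H3K27Ac libraries, 32.4% ± 0.420 (SD, n = 2). Distal intergenic peaks showed the reverse, with 26.9%, 28% and 27.9% against 17.6% and 16.7%. Their means were 27.6% ± 0.592 and 17.2% ± 0.597, a ratio of 1.61. Promoter peaks made up 21.3% of the peak length and distal intergenic peaks 29.2%, so that the H3K18La reads were spread close to the length of these classes, and the H3K27Ac reads were not. The 108253 peaks match in number a set that the study called on H3K18La in developing retinas. If they are that set, H3K18La fixed the class lengths, and sites with H3K27Ac alone are missing from these shares.

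Introns held 42.9% ± 0.323 of the H3K18La reads and 40.1% ± 0.751 of the H3K27Ac reads, and exons 6.31% ± 0.0474 and 6.06% ± 0.111. The 5′ untranslated regions held 0.629% and 0.855% and the 3′ untranslated regions 2.73% and 3.21%, both with more H3K27Ac, and the peaks just downstream of genes 0.143% and 0.132%. In each of the 7 classes the libraries of the marks did not overlap. With 3 against 2 libraries a two-sided exact permutation test cannot go below p = 0.2, which was the value for each class. The widest 95% Wilson interval of a class share in a library was ± 0.242 percentage points, counting error only.

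**Figure D1:**
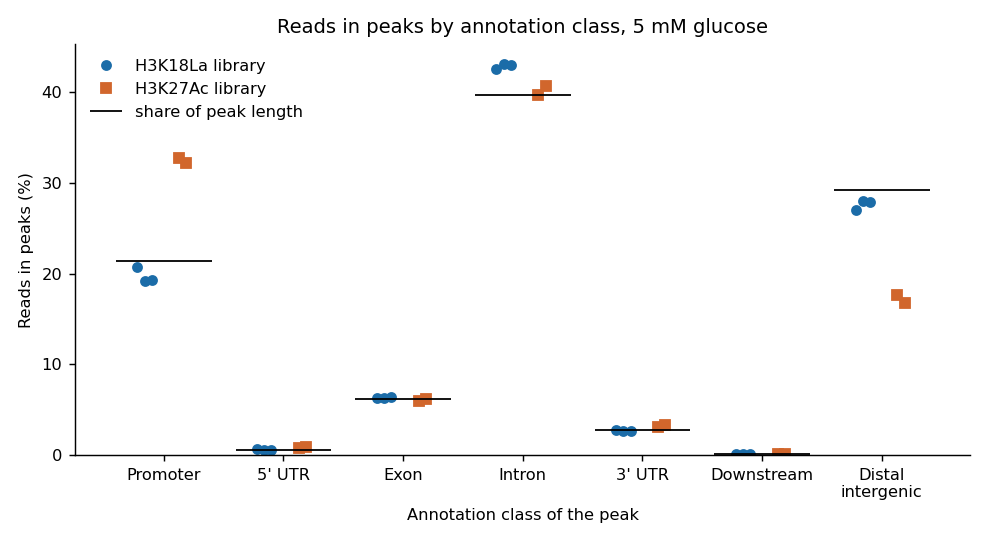
Percent of each library's reads in peaks (y axis) in the 7 annotation classes (x axis) at 5 mM glucose. Circles are the 3 H3K18La libraries, squares the 2 H3K27Ac libraries and black lines the share of the peak length. Promoters stand at 19.1% to 20.7% for H3K18La and 32.2% to 32.7% for H3K27Ac, and distal intergenic peaks at 26.9% to 28% and 16.7% to 17.6%.

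Within promoters, the gap was wider at coding transcripts, with 12.6% ± 0.641 of H3K18La reads and 22.9% ± 0.429 of H3K27Ac reads (ratio 0.548), than at other transcripts, with 7.16% ± 0.243 and 9.52% ± 0.00896 (ratio 0.753). Within introns it lay in later introns, with 26.1% ± 0.325 and 22.7% ± 0.249, whereas first introns held slightly less of the H3K18La reads, 16.8% ± 0.0529 against 17.5% ± 0.502. By distance, peaks lying over a start site held 18.3% ± 0.876 of H3K18La reads and 31.2% ± 0.401 of H3K27Ac reads. Every bin away from the start site held more of the H3K18La reads, from 1.96% against 1.74% up to 1 kb, through 6.92% against 6.75% at 1 to 5 kb and 21.2% against 19.6% at 5 to 20 kb, to 32.7% against 27% at 20 to 100 kb and 18.9% against 13.7% beyond 100 kb. The bin at 1 to 5 kb turned when peaks were limited to those with a mean value of at least 20. Peaks wider than 2 kb held 14.7% ± 0.392 of H3K18La reads and 15.8% ± 0.661 of H3K27Ac reads, a difference that also turned with that limit.

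The larger background share of H3K18La moves with these values. After a uniform background was taken off each library, promoters held 19.1% of H3K18La reads and 33.9% of H3K27Ac reads, and distal intergenic peaks 27% and 15.6%. The libraries at 25 mM glucose had lower background, 7.02% to 8.33% for H3K18La and 1.66% to 2.91% for H3K27Ac. There the promoter share was 20.04% for H3K18La, within 18% to 23.2%, and 38.3% for H3K27Ac, 35.1% and 41.5%, and the distal intergenic share 26.5% and 14.9%. The difference between the marks in class shares was compared between the glucose levels by permuting glucose labels within each mark, and none of the 15 tests fell below an adjusted p of 0.531 (exact permutation test).

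Base composition followed the same line. The read-weighted GC content of peaks was 51.2%, 51.0% and 51.0% in the H3K18La libraries and 52.4% and 52.3% in the H3K27Ac libraries, against 50.9% for the peak length. The decile of peaks with the highest GC content, of which 76.0% were promoters, took 11.1% ± 0.514 of H3K18La reads and 18.9% ± 0.610 of H3K27Ac reads. The ninth decile also held less H3K18La, 11.4% against 13.3%, and the fifth decile more, 10.6% against 8.79%. Promoter peaks were then ordered by their CpG content, observed over expected. In the lowest quartile the marks held 5.85% and 6.57% of their reads, in the second 4.91% and 7.76%, in the third 4.73% and 9.23% and in the highest 4.23% and 8.89%. The ratio of H3K18La to H3K27Ac thus went from 0.890 at the promoters poorest in CpG to 0.475 at the richest.

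**Figure D2:**
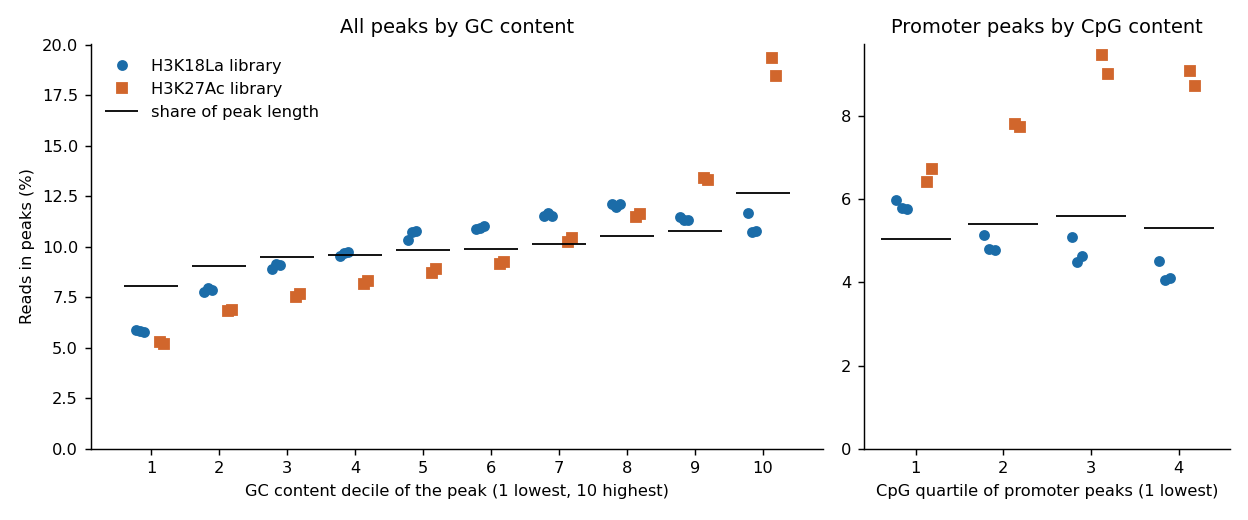
Percent of each library's reads in peaks (y axes) by GC content decile of all peaks (left) and by CpG quartile of promoter peaks (right), with circles for H3K18La, squares for H3K27Ac and black lines for the share of peak length. H3K27Ac exceeds H3K18La in deciles 9 and 10 and in every promoter quartile, and in the highest the means are 8.89% and 4.23%.

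Peaks whose bases were more than 50% repeat-masked held a small share of the reads of both marks, 2.88% ± 0.0618 of H3K18La and 1.96% of H3K27Ac, against 3.72% of the peak length. Among the peaks called, 167 of the 388 with more H3K27Ac (43.0%) lay at coding promoters and 19 (4.90%) were distal intergenic, whereas 140 of the 291 with more H3K18La (48.1%) were distal intergenic, 81 lay in later introns, 39 in first introns and 11 at promoters. In the 10367 tested, 16.1% were coding promoters and 17.6% distal intergenic. Median GC content was 54.3% in the H3K27Ac set, 50.6% in the H3K18La set and 51.1% in all tested. The central 300 bases held a median of 7 CpG in the H3K27Ac set, 3 in the H3K18La set and 4 in all tested. Within promoters the median was 16 in the H3K27Ac set and 18 in all tested, and outside promoters 4 and 3.

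Short motifs were counted in the central 300 bases on both strands. GGGCGG, the core of the GC box bound by SP and KLF factors, was in 11.8% of all 108253 peaks and 16.7% of the 10367 tested, in 30.9% of the called peaks with more H3K27Ac and in 6.19% of those with more H3K18La. Within promoters it was in 45.6% of those called with more H3K27Ac and 47.2% of those tested, and outside promoters in 12.3% and 6.85%. TAATCC, the site read by the photoreceptor factors CRX and OTX2, was in 11.5% of all peaks and 13.7% of those tested, in 16.2% of the called peaks with more H3K27Ac and in 11% of those with more H3K18La. Within promoters it was in 11.98% of those called with more H3K27Ac and 8.69% of those tested. Outside promoters it was in 21.6% of the 171 called with more H3K27Ac, in 11.4% of the 280 called with more H3K18La and in 15.3% of all tested. The AP-1 site TGACTCA was in 5.84% of the peaks tested, 3.87% of the H3K27Ac set and 4.12% of the H3K18La set, and the E-box CACGTG in 5.42%, 5.67% and 3.78%. These shares are descriptions, since the called peaks rested on both H3K27Ac libraries.

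Genes were then compared by locus, the sum over all peaks whose nearest gene is the same, in RPM. Of 9958 loci tested, 2448 (24.6%) had relatively more H3K18La and 2922 (29.3%) relatively more H3K27Ac (limma adjusted p under 0.05), and the median log2 difference was -0.13. Over all 25420 loci with a peak, before the limit of 20 RPM on the mean of the mark means, the median was 0.03 and 52.3% had a positive difference. Of the loci tested, 1061 reached the limit with H3K18La alone and 1608 with H3K27Ac alone, so that a difference toward that mark was built into them. Gene lists are therefore also described over their members with a peak, tested or not. Without either H3K27Ac library fewer loci were called, and H3K18La then had more of the calls than H3K27Ac. The medians were -0.11 without replicate 1 and -0.15 without replicate 2, each with a single remaining library taken to vary like the other group. With each library thinned to the depth of the shallowest, 1063 loci were called toward H3K18La and 1024 toward H3K27Ac. With a uniform background taken off, 2121 and 2653 were called. The split between the marks also depends on the scale, since values left as RPKM gave 47 and 6061 with a median of -1.13, and libraries centred on their medians gave 2770 and 2537.

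Promoters lay further toward H3K27Ac than the other peaks of a locus. Summed over promoter peaks, 125 of 4215 genes (2.97%) had more H3K18La and 1944 (46.1%) more H3K27Ac, with a median of -0.88. Summed over the other peaks, 2403 of 6673 genes (36.0%) had more H3K18La and 1132 (17.0%) more H3K27Ac, with a median of 0.36. These sums cover different sets of genes. Before the limit of 20 RPM the medians were smaller, -0.51 over 14565 genes with a promoter peak and 0.23 over 19861 genes with other peaks. With each library thinned to the depth of the shallowest, 0 promoters passed the threshold of limma, with 1511 at an unadjusted p under 0.05 and a median of -0.86, whereas 1572 sums over other peaks did. Recovered reads with limma-voom gave 3114 promoter calls. The promoter calls depended on both H3K27Ac libraries, with 16 left without replicate 1 and 8 without replicate 2, all with more H3K27Ac, and medians of -0.89 in both cases. Without H3K18La replicate 2 there were 1279. Away from promoters 2314 and 1538 calls were left without H3K27Ac replicate 1 or 2. Centring each library on its median, which takes off the shift common to promoters, gave 299 and 40 promoter calls and 1442 and 1615 elsewhere, and values left as RPKM gave 6 and 3769, and 37 and 2937.

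In 2022 genes both the promoter and the other peaks could be tested. The promoter had the lower log2 difference in 1530 of them (75.7%), with medians of -0.73 at promoters and -0.27 elsewhere, both toward H3K27Ac. In 457 genes H3K27Ac was relatively higher at both, in 66 genes H3K18La was, and in 26 genes the promoter had more H3K27Ac and the other peaks more H3K18La. The opposite split was found in 0 genes. The gene with the widest split was Ndufb1-ps, named for a complex I subunit. Its promoter had 19.7, 24.3 and 6.23 for H3K18La and 88.7 and 85.3 for H3K27Ac (-2.19 ± 0.40, limma adjusted p = 0.00808), and its other peaks, of 8 in all, had 174, 161 and 162 against 44.9 and 52.6 (1.67 ± 0.21, limma adjusted p = 4.95e-07). Fars2, the mitochondrial phenylalanyl-tRNA synthetase, had 15.8, 14.6 and 18.7 against 64.6 and 60.8 at its promoter and 975, 923 and 823 against 475 and 498 over the others of its 66 peaks. Pclo, a scaffold of the presynaptic active zone, had 7.90, 13.0 and 24.9 against 39.4 and 39.8 at the promoter and 162, 164 and 118 against 79.9 and 102.2 elsewhere. Sdccag8, a centrosomal protein of cilia, had 19.7, 37.3 and 31.2 against 55.8 and 55.7 and then 553, 470 and 517 against 229 and 267. In each of these, which were chosen for their split, H3K27Ac led at the promoter and H3K18La over the other peaks nearest to the same gene, which need not lie in the gene itself. The promoters of Ndufb1-ps, Fars2 and Pclo reached the limit of 20 RPM with H3K27Ac alone, so that their direction was built in. The promoter side of all calls fell to 16 and 8 genes without an H3K27Ac library, as given above.

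Loci differed with the number of peaks and with whether one of them was a promoter. Among loci with a single peak that was a promoter, 2.42% of 1034 had more H3K18La and 56.2% more H3K27Ac. With 40 or more peaks including a promoter, the shares were 63.6% and 11.9% of 176. Without a promoter peak, loci of a single peak leaned to H3K27Ac, with 7.69% and 30.8% of 143 called. Of 693 such loci with 2 to 4 peaks 26.7% and 9.52% were called, and of 95 with 20 to 39 peaks 91.6% and 2.11%. Over all sizes, 17.4% and 35.9% of 7732 loci with a promoter peak were called, and 49.5% and 6.60% of 2226 loci without one. A locus of many peaks also holds more reads, and the part of depth in these shares was not tested.

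**Figure D3:**
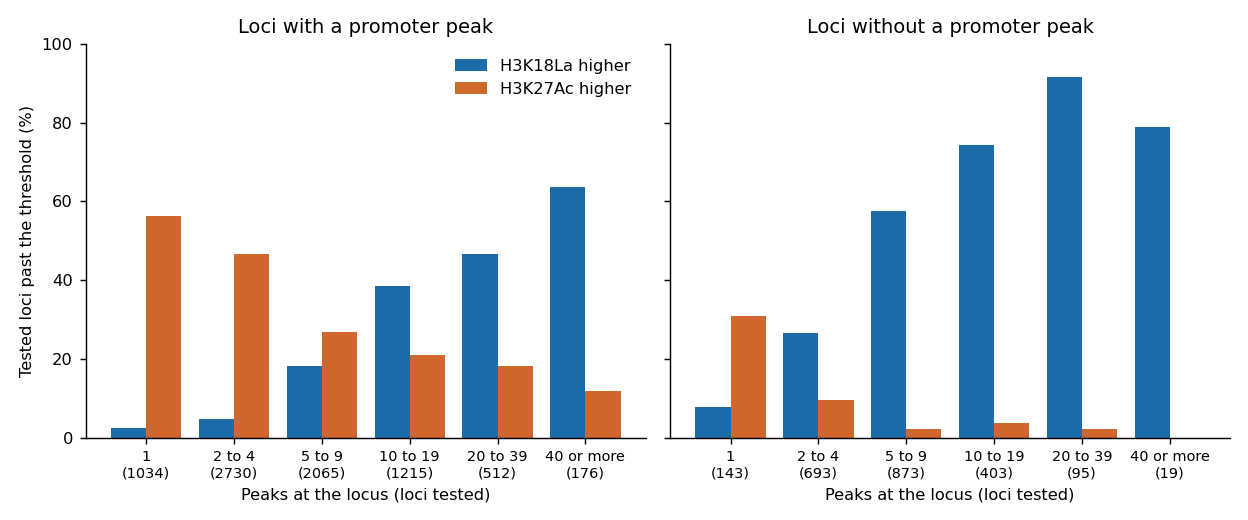
Percent of tested gene loci past an adjusted p of 0.05 (y axis) with relatively more H3K18La (blue) or H3K27Ac (orange), by number of peaks at the locus (x axis, with the number of loci tested), for loci with a promoter peak (left) and without one (right). The H3K27Ac share is highest at loci of 1 promoter peak (56.2%), and the H3K18La share at loci of 20 to 39 peaks with no promoter (91.6%).

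The gene loci with the largest difference toward H3K27Ac had 1 to 3 peaks, each with a promoter among them. Ccdc28b, a modifier of the ciliary Bardet-Biedl syndrome genes, with its peaks at chr4:129622598-129624924 of GRCm38, had 0, 14.6 and 0 in the H3K18La libraries and 75.5 and 65.4 in the H3K27Ac libraries (-3.26 ± 0.61, limma adjusted p = 0.000702). Lgals8, which encodes galectin 8, had 7.90, 4.86 and 0 against 61.3 and 51.6. The order depends on the measure, since by pooled reads after scaling the ratio of H3K18La to H3K27Ac was 0.127 at Ccdc28b (95% exact interval 0.0574 to 0.247) and lower at Lgals8 (0.0887), Metap2 (0.0948) and Bet1l (0.113). Grina, a glutamate receptor associated membrane protein, with a single peak at chr15:76246237-76248045, had 7.90, 13.0 and 12.5 against 87.6 and 79.7 (-2.47 ± 0.34, limma adjusted p = 6.74e-05), the tightest of the group. At these 3 loci every H3K27Ac library stood above every H3K18La library. The others were Maneal (-2.76), Gdap1l1 (-2.73), Ppp1r42 (-2.71), Pcsk4 (-2.67), Metap2, a methionine aminopeptidase (-2.56), Ero1l, an oxidase of the endoplasmic reticulum (-2.55), Bet1l (-2.52) and Smarcad1, a chromatin remodeller (-2.45). Without H3K27Ac replicate 1 the calls of Bet1l, Lgals8, Metap2 and Pcsk4 were lost (-2.72 to -2.34, limma adjusted p = 0.0593 to 0.112), and without replicate 2 those of Bet1l and Pcsk4 (-2.66 and -2.65, limma adjusted p = 0.0853 and 0.136).

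The loci with the largest difference toward H3K18La had between 1 and 68 peaks. Cyp26a1, the enzyme that breaks down retinoic acid, with its peaks at chr19:37703406-37708944, had 111, 104 and 131 for H3K18La and 15.3 and 21.5 for H3K27Ac over 2 peaks, none at a promoter (2.37 ± 0.25, limma adjusted p = 9.12e-06). Maf, a transcription factor of the AP-1 superfamily, had 90.8, 77.8 and 131 against 27.4 and 12.8 over 11 peaks (2.10 ± 0.31). En2, whose intergenic peak is printed above, had 94.8, 97.3 and 106 against 24.1 and 21.5 over 8 peaks (1.91 ± 0.24). Pou4f3, a POU factor of ganglion and inner ear hair cells, had 59.2, 40.5 and 56.1 against 8.76 and 12.8 (1.85 ± 0.33). Alk, a receptor tyrosine kinase whose peaks spanned chr17:71869583-72606052, was the most deeply covered, with 1173, 1174 and 1346 against 386 and 367 over 68 peaks (1.69 ± 0.09, limma adjusted p = 1.38e-08). At each of these loci the 3 H3K18La libraries lay above both H3K27Ac libraries. The other 7 were Adamts15, an extracellular protease (1.96), Clca1 (1.88), Adra1a, an adrenergic receptor (1.78), AC110885.1 (1.77), Mir466j (1.76), Bdkrb1, the bradykinin receptor B1 (1.76), and Mir6408 (1.72). Of the loci named for their size, those toward H3K27Ac all reached the limit with that mark alone, and those toward H3K18La did so with H3K18La alone, except for Maf, En2, Mir466j and Alk. Mir466j and Mir6408 name loci of peaks near these microRNA genes, not microRNA levels.

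**Figure D4:**
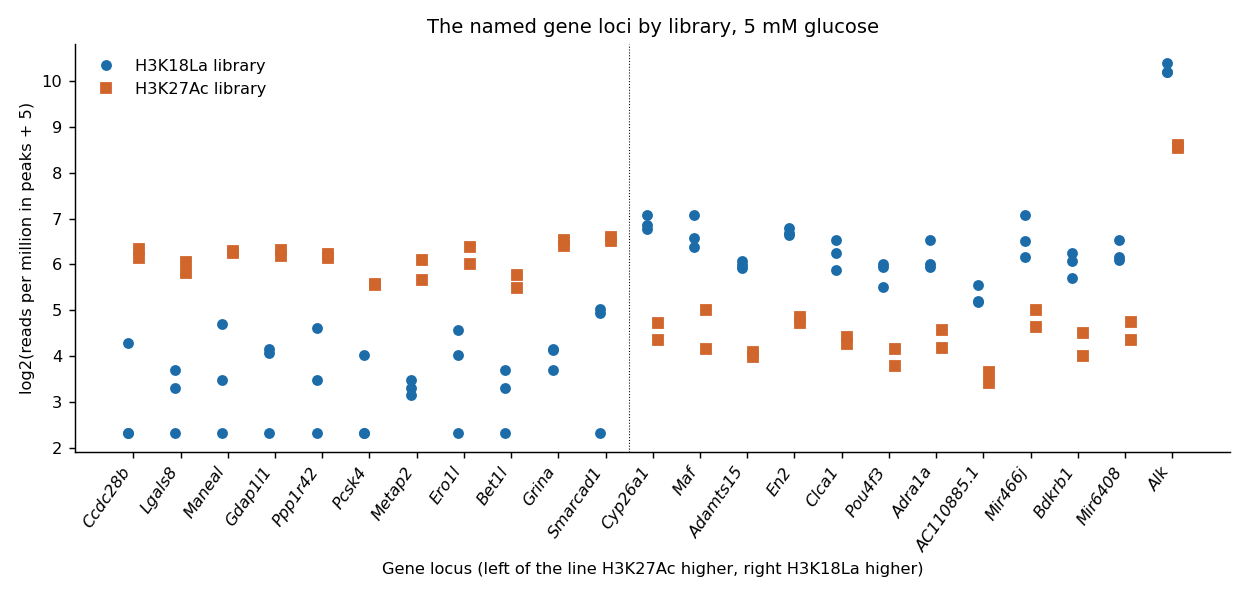
Log2 of RPM plus 5 (y axis) of the named gene loci (x axis) in each library at 5 mM glucose, with circles for H3K18La and squares for H3K27Ac. Left of the dotted line are the loci highest in H3K27Ac, from Ccdc28b (-3.26) on, and right of it those highest in H3K18La, from Cyp26a1 (2.37) on, with no overlap between marks at any locus.

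At promoters alone, the largest differences toward H3K27Ac were those of Ccdc28b (-3.26 ± 0.66), Lgals8 (-2.83 ± 0.58), Gdap1l1 (-2.74 ± 0.57), Ppp1r42 (-2.71 ± 0.59), Pcsk4 (-2.67 ± 0.81) and Akr1a1, an aldehyde reductase, with 0, 3.24 and 6.23 against 47.1 and 38.8 (-2.63 ± 0.71, limma adjusted p = 0.0190). The largest of the 125 on the other side were those of Loxl4, a lysyl oxidase, with 55.3, 60.0 and 99.7 against 12 and 18.9 (1.88 ± 0.33, limma adjusted p = 0.00791), AC110885.1 (1.77 ± 0.36), Cdh13, the cadherin without a transmembrane domain (1.65 ± 0.40), Cib4 (1.61 ± 0.42), Cdcp2 (1.46 ± 0.38) and Opn4. Opn4 encodes melanopsin, the photopigment of intrinsically photosensitive ganglion cells, and its promoter had 55.3, 43.8 and 37.4 for H3K18La against 14.2 and 12.8 for H3K27Ac (1.43 ± 0.30, limma adjusted p = 0.00985). These 12 promoters all reached the limit through the higher mark alone. All 12 calls were lost without H3K27Ac replicate 1 (-3.16 to 1.97, limma adjusted p = 0.0888 to 0.222) and without replicate 2 (-3.35 to 2.12, limma adjusted p = 0.0792 to 0.235), and no direction turned. Without H3K18La replicate 1 that of Cib4 was lost (1.43, limma adjusted p = 0.0523), and without replicate 2 those of AC110885.1 (1.65) and Pcsk4 (-3.24, limma adjusted p = 0.0541).

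Rod genes carried relatively more H3K27Ac. Of 19 tested loci of rod phototransduction, 14 had more H3K27Ac and 0 more H3K18La, with a median of -0.88, against 29.3% and 24.6% of all loci. All 19 had a promoter peak and a negative difference. Over all loci with a promoter peak the shares were 35.9% and 17.4%. Gnat1, rod transducin alpha, had 11.8, 17.8 and 6.23 in the H3K18La libraries and 51.5 and 58.7 in the H3K27Ac libraries (-1.88 ± 0.40, limma adjusted p = 0.00160), and was tested through its H3K27Ac level alone. Pde6g, the inhibitory subunit of the rod phosphodiesterase, had 27.6, 40.5 and 31.2 against 94.1 and 111 (-1.51 ± 0.26), and Slc24a1, the rod cation exchanger, 170, 125 and 162 against 324 and 379. The libraries of the marks did not overlap at these loci. Of 19 tested genes of the outer segment, cilium and matrix, 17 had more H3K27Ac and 0 more H3K18La (median -0.86), and 19 of the 20 with a peak had a negative difference, among them Reep6 (-1.81 ± 0.25), Rpgrip1, a protein of the connecting cilium (-1.79 ± 0.27), and Fscn2, the photoreceptor fascin, with 154, 156 and 181 against 415 and 477 (-1.42 ± 0.15).

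Photoreceptor transcription factors were divided. Of 15 tested, 9 had more H3K27Ac and 3 more H3K18La (median -0.89), beside the same 29.3% and 24.6% of all loci. Nrl, which sets the rod fate, had 31.6, 56.7 and 24.9 against 101 and 109 (-1.43 ± 0.30), Crx 63.2, 42.2 and 24.9 against 89.8 and 95.5 (-1.09 ± 0.31) and Mef2d 118, 167 and 150 against 407 and 442 (-1.53 ± 0.17, limma adjusted p = 1.06e-05). Nr2e3, Neurod1 and Otx2 followed with -1.22 ± 0.18, -1.53 ± 0.27 and -0.89 ± 0.21. The 3 with more H3K18La were Thrb, the thyroid hormone receptor that patterns cone opsins, with 1323, 1326 and 1440 against 973 and 1050 over 95 peaks (0.43 ± 0.07), Rxrg, a retinoid receptor of cones, with 94.8, 101 and 87.3 against 47.1 and 39.8 (1.04 ± 0.23), and Samd7, a rod chromatin silencer (0.82 ± 0.24). At Thrb the log2 difference was -0.46 at the promoter, which did not pass the threshold (limma adjusted p = 0.0554), and 0.53 over its other peaks (limma adjusted p = 7.35e-06).

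Of 6 tested loci of cone phototransduction, 3 had more H3K18La and 0 more H3K27Ac, with a median of 0.78, against 24.6% and 29.3% of all loci. Cnga3 was tested through its H3K18La level alone. Of the 11 cone genes with a peak, 9 had a positive difference (median 0.80). Pde6h, the inhibitory subunit of the cone phosphodiesterase, had 98.7, 64.9 and 56.1 against 27.4 and 20.4 (1.41 ± 0.29, limma adjusted p = 0.00134). Pde6c, its catalytic subunit, had 59.2, 64.9 and 62.3 against 20.8 and 21.5 (1.36 ± 0.27). Cnga3, the cone channel, had 43.4, 55.1 and 24.9 against 20.8 and 18.4 (0.85 ± 0.35). The summed level of the 11 cone genes was 407, 415 and 349 RPM in the H3K18La libraries and 206 and 181 in the H3K27Ac libraries, whereas that of the 19 rod genes with a peak was 1627, 1304 and 1571 against 2505 and 2914. Of the photoreceptor genes named, only Cnga3 lost its call without H3K18La replicate 1 (0.79, limma adjusted p = 0.0899) or replicate 2 (0.63, limma adjusted p = 0.197). Without H3K27Ac replicate 1 Cnga3 (0.92) and Samd7 (0.80) lost theirs (limma adjusted p = 0.146 and 0.0893), and without replicate 2 Cnga3 (0.78), Crx (-1.05), Gnat1 (-1.79), Otx2 (-0.76), Rxrg (0.93) and Samd7 (0.84) did (limma adjusted p = 0.0544 to 0.233). With values left as RPKM, Thrb, Samd7 and Cnga3 turned to the side of H3K27Ac.

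Genes of glycolysis, the pathway that ends in lactate, carried relatively more H3K27Ac in 18 of 23 tested loci and more H3K18La in 0 (median -1.25), against 29.3% and 24.6% of all loci. All 23 had a promoter peak and 16 had at most 4 peaks, a kind of locus at which H3K27Ac calls made up 56.2% (1 peak) and 46.5% (2 to 4 peaks). Of the 23, 6 reached the limit with H3K27Ac alone, among them Gpi1, Slc16a3 and the second Aldoa entry below, and of all 29 entries with a peak 24 had a negative difference (median -1.14). Ldha, the lactate dehydrogenase subunit that favours lactate, had 19.7, 42.2 and 24.9 for H3K18La and 73.3 and 105 for H3K27Ac (-1.50 ± 0.31, limma adjusted p = 0.00135). Aldoa, aldolase A, is listed under 2 gene identifiers. One had 35.5, 21.1 and 18.7 against 78.8 and 86.3 (-1.58 ± 0.30), the other 3.95, 3.24 and 6.23 against 39.4 and 35.2 (-2.17 ± 0.56). Gpi1 had 15.8, 14.6 and 12.5 against 59.1 and 75.6, Gapdh 31.6, 27.6 and 31.2 against 84.3 and 94.5, and Pkm, pyruvate kinase, 94.8, 71.3 and 43.6 against 181 and 201. The transporters showed the same order, with 142, 173 and 199 against 343 and 346 for Slc2a1, the glucose transporter GLUT1 (-1.0 ± 0.17), and 15.8, 17.8 and 6.23 against 56.9 and 51.1 for Slc16a3, the lactate exporter MCT4 (-1.75 ± 0.40). Hk1, the hexokinase of the first step, differed least among those named, with 434, 360 and 467 against 583 and 690 (-0.60 ± 0.13).

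Respiratory chain and ATP synthase genes had more H3K27Ac in 10 of 14 tested loci and more H3K18La in 0 (median -1.31), among them Uqcrc2 of complex III (-1.65 ± 0.41). Of these 14, 13 had at most 4 peaks with a promoter among them, where 46.5% to 56.2% of all loci were called, and 8, Uqcrc2 among them, reached the limit with H3K27Ac alone. Of all 33 with a peak, 32 had a negative difference (median -1.20). Of 11 loci of glucose response and energy sensing, 5 had more H3K27Ac and 1 more H3K18La (median -0.48), with 29.3% and 24.6% over all loci, and 16 of the 18 with a peak had a negative difference (median -0.70). Mtor, the growth and nutrient kinase, had 35.5, 40.5 and 24.9 against 123 and 131 (-1.79 ± 0.26), and Hif1a, the hypoxia factor, 11.8, 24.3 and 31.2 against 74.4 and 65.9. Insr, the insulin receptor, was uneven among H3K18La libraries, with 118, 77.8 and 18.7 against 183 and 150 (-1.45 ± 0.45). Egln3, a prolyl hydroxylase that marks HIF1A for decay, was the 1 on the other side, with 55.3, 73.0 and 81.0 against 33.9 and 26.6 (1.08 ± 0.27). Of these metabolic genes, the second Aldoa entry (-2.10), Slc16a3 (-1.68) and Uqcrc2 (-1.56) lost the call without H3K27Ac replicate 1 (limma adjusted p = 0.0582 to 0.139), and the second Aldoa entry (-2.24), Egln3 (0.93), Ldha (-1.26) and Uqcrc2 (-1.74) without replicate 2 (limma adjusted p = 0.0570 to 0.131).

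Enzymes that add or remove histone acyl groups had more H3K27Ac in 12 of 17 tested loci and more H3K18La in 0 (median -0.98), against 29.3% and 24.6% of all loci. Of the 17, 4 reached the limit with H3K27Ac alone, among them Ep300, Hdac1 and Hdac10, and of 25 with a peak 22 had a negative difference (median -0.98). Crebbp, an acetyltransferase of H3K27 and H3K18, had 59.2, 68.1 and 49.9 against 139 and 158 (-1.27 ± 0.22), and its relative Ep300 19.7, 6.49 and 12.5 against 35 and 41.9 (-1.34 ± 0.43). Kat2b, the acetyltransferase PCAF, had 284, 203 and 224 against 400 and 474, and the deacetylases Hdac1 and Hdac10 differed by -1.37 ± 0.34 and -1.91 ± 0.46. Of 17 immediate early genes, 7 had more H3K27Ac and 0 more H3K18La (median -0.57), a share close to the 35.9% of all loci with a promoter peak, which each of the 17 had. Of these 3, Ier2 among them, reached the limit with H3K27Ac alone, and of the 23 with a peak 15 had a negative difference (median -0.52). The values were 158, 107 and 99.7 against 223 and 229 at Fos, 146, 169 and 137 against 275 and 308 at Nr4a1, and the log2 difference was -1.08 ± 0.29 at Junb and -1.53 ± 0.50 at Ier2. Of 18 cytosolic ribosomal protein genes, 13 had more H3K27Ac and 2 more H3K18La (median -0.95), against 29.3% and 24.6% of all loci. Among the 13 were Rps14 (-1.06 ± 0.24) and Rpl15 (-1.63 ± 0.62). All 18 had a promoter peak and 14 had at most 4 peaks, a kind of locus at which H3K27Ac calls made up 46.5% to 56.2%. Of the 18, 7, Rpl15 among them, reached the limit with H3K27Ac alone, and 55 of the 59 with a peak had a negative difference (median -0.98). The 2 with more H3K18La, Rpl37a (1.08 ± 0.22) and Rps24 (0.93 ± 0.17), each had 11 peaks, and their tested peaks away from promoters gave 1.22 and 1.04. With values left as RPKM, Rps24 turned to the side of H3K27Ac (-0.16). Ribosomal protein genes have many processed copies in the genome, to which reads could also belong. Without H3K27Ac replicate 1 the calls of Ep300, Hdac1, Hdac10, Ier2, Rpl15 and Rps14 were lost (-1.75 to -0.94, limma adjusted p = 0.0502 to 0.192), without replicate 2 those of Ep300, Hdac1, Hdac10, Ier2, Junb and Rpl15 (-2.07 to -0.93, limma adjusted p = 0.0695 to 0.232), and without H3K18La replicate 2 that of Rpl15 (-1.86, limma adjusted p = 0.0604).

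Neuronal adhesion and synapse genes with long bodies had more H3K18La in 16 of 25 tested loci, more H3K27Ac in 1 and a median of 0.75, against 24.6% and 29.3% of all loci. They are loci of many peaks, 22 of the 25 with 20 or more, and their share lay near that of all loci of this size with a promoter peak, 46.7% at 20 to 39 peaks and 63.6% at 40 or more. Of the 25, 3 reached the limit with H3K18La alone, Kcnip4, Cntn5 and Lrrtm4, of which Cntn5 was called, and of the 26 with a peak 22 had a positive difference (median 0.70). Opcml, an adhesion protein of the IgLON family, had 648, 824 and 854 against 311 and 273 over 67 peaks (1.39 ± 0.13, limma adjusted p = 2.03e-06). Ptprt, a receptor phosphatase, had 166, 167 and 168 against 66.8 and 39.3 (1.61 ± 0.23), Rbfox1, a neuronal splicing factor, 201, 214 and 280 against 140 and 86.3 (1.03 ± 0.21), and Dlg2, the scaffold PSD-93, 648, 709 and 785 against 417 and 415 (0.77 ± 0.11). Ntm, of the IgLON family too, differed less, with 1982, 2070 and 2051 against 1636 and 1820 (0.24 ± 0.06). The 1 with more H3K27Ac was Dmd, dystrophin, with 122, 113 and 162 against 182 and 188 (-0.48 ± 0.19). Over peaks away from promoters 17 of 24 tested genes had more H3K18La and 0 more H3K27Ac (median 0.77), against 36.0% and 17.0% of all such sums, whereas 10 tested promoters gave 1 and 1 (median -0.35), against 2.97% and 46.1% of all promoters.

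Genes of the synapse itself had more H3K27Ac in 8 of 17 tested loci and more H3K18La in 1 (median -0.56), against 35.9% and 17.4% of all loci with a promoter peak, which all 17 had. Of the 18 with a peak 14 had a negative difference (median -0.64). Stx3, the syntaxin of ribbon synapses, had 47.4, 43.8 and 31.2 against 123 and 124 (-1.51 ± 0.25), Slc17a7, the vesicular glutamate transporter VGLUT1, 35.5, 25.9 and 18.7 against 74.4 and 76.6 (-1.38 ± 0.30), and Snap25 292, 199 and 231 against 393 and 413 (-0.75 ± 0.16). Cacna1f, the calcium channel of photoreceptor terminals, had 7.90, 8.11 and 12.5 against 49.3 and 32.7 (-1.66 ± 0.44), and reached the limit with H3K27Ac alone. Erc2, an active zone protein, was the 1 on the other side, with 292, 305 and 256 against 221 and 212 over 40 peaks (0.38 ± 0.15). Olfactory receptor loci, genes of the nose, had 4 of 131 tested, of which 1, Olfr288, had more H3K27Ac (-1.11 ± 0.37). Of the 131, 95 had a positive difference (median 0.19), beside 52.3% of all loci with a peak (median 0.03). At 104 of the 131 each H3K18La library held at most 3 reads, and only 23 had a promoter peak. All loci without a promoter peak had a median of 0.33, tested or not. The summed level of the 131 was 644, 611 and 573 against 430 and 357. The 19 vomeronasal receptor and 5 Hox genes with a peak were all under the limit of 20 RPM, with summed levels of 92.4 to 131 against 44.9 and 56.7, and of 9.73 to 15.8 against 10.9 and 5.11. Of 6 clustered protocadherin genes with a peak, 3 had a positive and 3 a negative difference. The 1 tested, Pcdha1, had more H3K27Ac (-1.38 ± 0.34) and reached the limit with H3K27Ac alone. Of the genes named here, Dmd (-0.43, limma adjusted p = 0.0754) and Erc2 (0.36, limma adjusted p = 0.0649) lost the call without H3K18La replicate 1, and also without replicate 2 (-0.38 and 0.33, limma adjusted p = 0.143 and 0.123). Without H3K27Ac replicate 1 Dmd, Erc2, Cacna1f, Ntm, Olfr288 and Pcdha1 lost it (-1.39 to 0.41, limma adjusted p = 0.0679 to 0.272), and without replicate 2 Dmd, Erc2, Cacna1f, Olfr288 and Pcdha1 (-1.92 to 0.35, limma adjusted p = 0.0654 to 0.226). Rbfox1, Dlg2, Ntm and Erc2 turned to the side of H3K27Ac with values left as RPKM.

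Few markers of ganglion cells, microglia and the pigment epithelium could be tested, and some of these only through their H3K18La level. All 11 ganglion cell markers with a peak, of 12 listed, had a positive difference (median 0.60), beside 52.3% of all loci (median 0.03). At 4 of these 11 each H3K18La library held at most 3 reads, so that their sign rests on very few reads. Over all tested loci 24.6% were called toward H3K18La and 29.3% toward H3K27Ac. The 4 tested passed toward H3K18La, of which Pou4f3 reached the limit through H3K18La alone, with 809, 809 and 885 against 382 and 373 at Ebf3 (1.13 ± 0.10), 75.0, 102.1 and 175 against 46.0 and 57.2 at Rbpms (1.04 ± 0.29), 0.60 ± 0.20 at Ebf1 and Pou4f3 as given above. Of 8 microglia markers with a peak, of 12 listed, 6 had a positive difference (median 0.66). Of the 6 tested 4 passed toward H3K18La, of which C1qb and Csf1r reached the limit through H3K18La alone, namely the complement genes C1qa, with 75.0, 81.1 and 37.4 against 27.4 and 20.9, and C1qb (1.02 ± 0.34), Trem2 (1.01 ± 0.30) and Csf1r (1.12 ± 0.41). Only 1 of these 6 loci had a promoter peak. Among all tested loci without one, 49.5% were called toward H3K18La and 6.60% toward H3K27Ac. Of 11 markers of endothelium and pigment epithelium with a peak, of 12 listed, 8 had a positive difference (median 0.55). Of the 4 tested 3 passed toward H3K18La, of which Mitf reached the limit through H3K18La alone, with 43.4, 73.0 and 68.6 against 19.7 and 21.5 at Tyrp1, an enzyme of melanin synthesis, 0.98 ± 0.31 at Mitf and 0.82 ± 0.25 at Rgr, a retinoid-binding opsin of pigment epithelium and Müller glia. The pigment epithelium had been removed at dissection. Rpe65, its visual cycle isomerase, was at 0 in all 5 libraries at its only peak, whereas other members of the list carried reads, such as Best1, a channel of the pigment epithelium, with means of 20.2 and 11.3.

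The other cell types were closer to the middle, with at most 1 call in each direction, beside the same 24.6% and 29.3% of all loci. Of 8 bipolar markers tested, 1 had more H3K18La, Grik1, a glutamate receptor of OFF bipolar cells (0.98 ± 0.32), and 1 more H3K27Ac, Lrit3 of ON bipolar synapses (-1.44 ± 0.40), which reached the limit with H3K27Ac alone. Of the 12 with a peak 9 had a positive difference (median 0.32). Of 8 Müller glia markers tested, 1 had more H3K18La, Dkk3 (1.25 ± 0.29). The median was 0.22 over the 8 and -0.10, on the other side, over the 16 with a peak, of which 7 had a positive difference. Of 3 amacrine markers, 1 had more H3K27Ac, the glycine transporter Slc6a9 (-0.37 ± 0.15), with a median of -0.05 over the 3 and of 0.01 over the 10 with a peak, and the 1 horizontal cell marker tested passed in neither direction (0.25), with a positive difference in all 4 with a peak. Each H3K18La library held at most 3 reads at 1 of these 4 and at 3 of the 10 amacrine markers. Over whole lists, the summed levels in H3K18La and H3K27Ac libraries were 1125 to 1315 and 559 to 574 for ganglion cells, 246 to 284 and 147 to 150 for microglia, 366 to 455 and 252 for endothelium and pigment epithelium, 498 to 612 and 424 to 464 for Müller glia, 1268 to 1279 and 1101 to 1151 for bipolar cells, 386 to 490 and 482 to 527 for amacrine cells and 107 to 156 and 88.9 to 106 for horizontal cells. Whether the marks' libraries differed in their makeup of cells was not tested.

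Several of these marker calls were weak. Without H3K27Ac replicate 1 those of Csf1r, Ebf1, Mitf, Rbpms, Rgr, Slc6a9 and Trem2 were lost (-0.33 to 1.13, limma adjusted p = 0.0595 to 0.230), and without replicate 2 those of C1qa, C1qb, Csf1r, Ebf1, Grik1, Lrit3, Mitf, Rgr, Slc6a9 and Trem2 (-0.99 to 1.11, limma adjusted p = 0.0619 to 0.273). Without H3K18La replicate 2 Csf1r (1.24), Ebf1 (0.43), Grik1 (0.92) and Slc6a9 (-0.33) lost it, and without replicate 3 Csf1r (0.87) and Slc6a9 (-0.34). No direction turned in these fits. With values left as RPKM, Rgr, Rbpms and Ebf1 turned to the side of H3K27Ac.

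**Figure D5:**
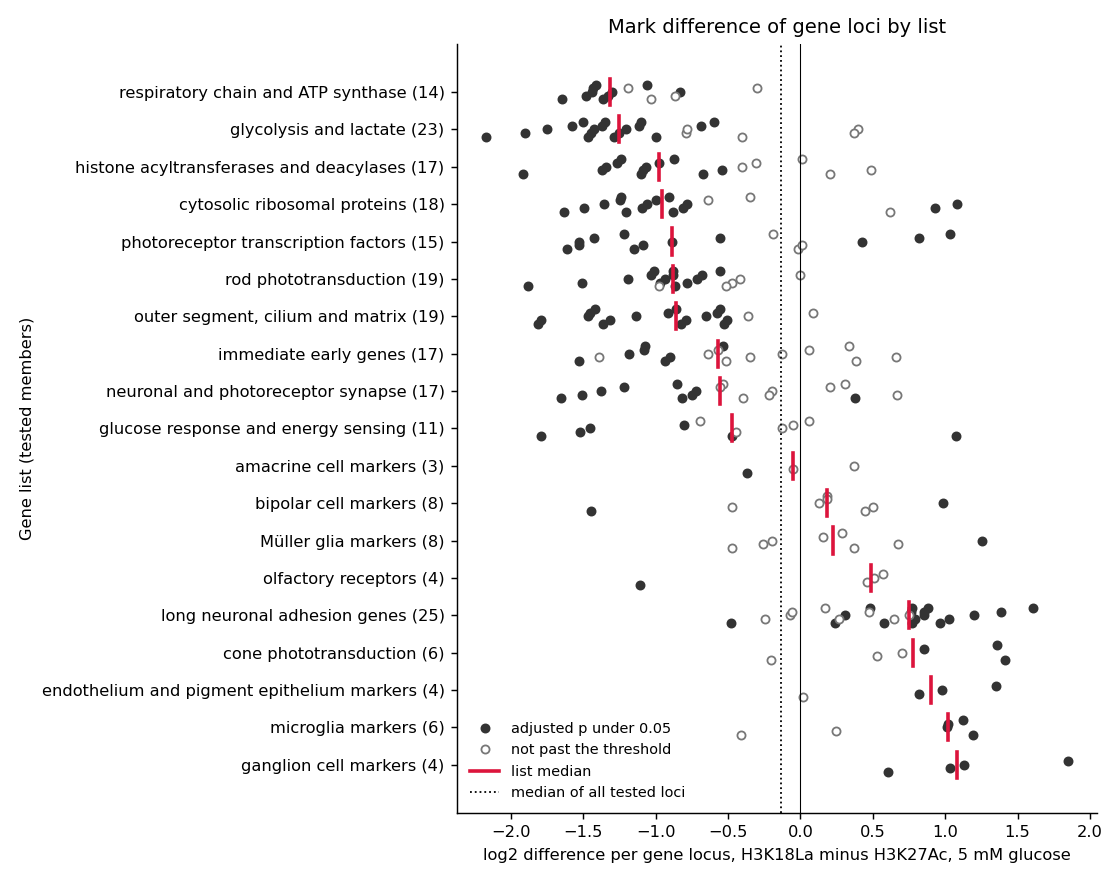
Log2 difference per gene locus, H3K18La minus H3K27Ac (x axis), of the tested members of the gene lists with at least 3 of them (y axis, number tested in brackets) at 5 mM glucose. Filled points passed an adjusted p of 0.05 and open points did not. Red bars are medians of the tested members, and the dotted line is the median of all tested loci (-0.13). Over all loci with a peak, tested or not, the median was 0.03. Respiratory chain and glycolysis genes lie mostly left of the dotted line, with medians over all members with a peak of -1.20 and -1.14, and cone genes and neuronal genes with long bodies mostly right of it, with 0.80 and 0.70.

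The same differences were read in the 5 libraries at 25 mM glucose, which share no sample with those at 5 mM. Of the 2448 loci with relatively more H3K18La at 5 mM, 2440 (99.7%) had a positive difference at 25 mM, and of the 2922 with more H3K27Ac, 2902 (99.3%) had a negative one, whereas 47.7% of all tested loci were positive. Over loci the differences at both levels had a Pearson's r of 0.91, over promoters 0.81 and over other peaks 0.90. These are given as descriptions across 9958 loci, 4215 promoters and 6673 genes, which share the same peaks and base composition and are not replicates. Cyp26a1 stood at 2.37 at 5 mM and 2.01 at 25 mM, Maf at 2.10 and 2.67, Alk at 1.69 and 1.73, Ccdc28b at -3.26 and -2.51 and Grina at -2.47 and -1.27. Fos and Ldha, with -0.90 and -1.50 at 5 mM, had -0.77 and -1.29 at 25 mM.

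Whether the difference between the marks itself differed between the glucose levels was tested over all 10 libraries. Of 9528 loci, 0 (0.0%) passed the interaction test of limma, with a smallest adjusted p of 0.671 and 697 loci at an unadjusted p under 0.05. Counting recovered reads with limma-voom also gave 0, with 1099 at an unadjusted p under 0.05. A p that misses the threshold with 2 or 3 libraries a group does not show that the loci behaved alike at both levels.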

How the data were processed

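CUT&Tag reads were aligned to GRCm38 by the authors, peaks were called with MACS, merged and annotated with ChIPseeker 1.34.1 (submitters' processing notes and the study's methods), and the deposited table gives RPKM per peak and library, normalised by the authors to a read total of the library (mapped reads in the study's description of its other peak tables, with the treatment of duplicates not given in the sources used here). The table's 108253 peaks match in number a set that the study called on H3K18La in developing retinas, so that peaks seen in H3K27Ac alone may be missing. A second deposited table holds fold changes and p-values of the authors' own comparisons, and was not used. RPKM values were whole multiples of 1 read in 100.0% of cases (tolerance 0.001), from which reads were recovered. Each library was rescaled to reads per 1000000 reads in peaks (RPM).

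Sums over annotation classes were compared as percentages (exact permutation test, two-sided). Peaks, gene loci, promoters and other peaks with a mean of the 2 mark means of at least 20 were tested with limma 3.58.1 in R 4.3.3 (lmFit, eBayes with trend) on log2(value + 5), with Benjamini-Hochberg adjustment over all features and a threshold of 0.05. Python 3.11.15 was used otherwise. The fits were tested on simulated data. In the text ± is an SD for shares and an SE for log2 differences, with 3 H3K18La and 2 H3K27Ac libraries. The series describes its replicates as biological, but no label ties a library to an animal, so that p-values measure the spread between libraries, which may be partly technical. Intervals cover counting error only. In 2 H3K27Ac and 3 H3K18La libraries, 1 read was worth 0.511 to 6.23 RPM.

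Named features were those past the threshold without overlap between marks, the 5 peaks, 12 loci and 6 promoters largest in each direction, leaving out Gm and Rik symbols, plus members of the gene lists, except for items not reported here (the 4 genes named for a split between promoter and other peaks were chosen after their values were seen). The comparison and all gene lists were chosen with earlier results of these data known. Same-numbered libraries were not paired: the replicate 1 minus replicate 2 differences of the marks correlated at -0.05 over 9958 loci. Alternatives changed the pseudocount, filter, scaling, background, model, block and libraries, as given at the end.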

Additional observations from a re-analysis of the deposited data

How the results depend on the processing

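Class, distance, width and GC differences kept their sign when any 1 library was left out, with ranges in percentage points of -13.2 to -12.4 (promoters), 10.0 to 10.9 (distal intergenic), 2.19 to 3.25 (introns), 0.167 to 0.324 (exons), -0.245 to -0.207 (5′ untranslated), -0.563 to -0.392 (3′ untranslated), 0.00611 to 0.0159 (downstream), -13.4 to -12.6 (over the start site), 0.200 to 0.235 (to 1 kb), 0.0915 to 0.250 (to 5 kb), 1.39 to 1.85 (to 20 kb), 5.56 to 5.94 (to 100 kb), 5.07 to 5.46 (beyond), -1.59 to -0.651 (over 2 kb wide) and -1.38 to -1.27 (GC). Only the limit to peaks with a mean of at least 20 turned any of them: downstream to -0.0010, 1 to 5 kb to -0.559 and width over 2 kb to 0.195.

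Leaving out 1 library gave 0 to 2580 peak calls, 1924 to 5966 locus calls, 8 to 2531 promoter calls and 1538 to 3807 calls away from promoters. Peak calls numbered 0 with a pseudocount of 1, no filter, background taken off, thinning to the shallowest library, a threshold of 0.01 or the GC trend removed, 68 with a minimum of 50, 1907 with a pseudocount of 20, 2276 with H3K18La replicates 2 and 3 as 1 sample, 4937 with voom and 6840 with RPKM as deposited. The replicate block gave 2304 peak calls and 5943, 2394 and 3601 at loci, promoters and elsewhere, although the numbers do not pair the samples. Locus calls were 3122 with no filter, 3009 with a minimum of 50, 2087 thinned, 3089 at 0.01 and 3132 at 2-fold or more. Promoter calls were 534 with a minimum of 50, 3775 as RPKM, 339 median-centred, 3114 with voom, 0 thinned and 286 at 0.01. Calls elsewhere were 1625 with no filter, 2221 with a minimum of 50, 1572 thinned, 2345 at 0.01 and 1833 at 2-fold. Other settings stayed within 1.5 times, and the interaction calls stayed at 0. The causes were not tested, apart from fewer reads when thinned and the common shift in the scalings.

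Peaks with a median centring split 787 to 139 and as RPKM 55 to 6785 (H3K18La first). As RPKM, 11 loci turned: Rbfox1 (-0.053), Thrb (-0.68), Rgr (-0.24), Rps24 (-0.16), Cnga3 (-0.089), Rbpms (-0.011), Erc2 (-0.71), Samd7 (-0.21), Dlg2 (-0.34), Ebf1 (-0.47) and Ntm (-0.88). Over all alternatives, 2080 values of single features under the naming rule kept their side of the threshold, 423 lost it and 11 turned. Depth limits single peaks, with a median of 1 to 4 H3K18La reads.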
